A study of Mus musculus with 12 samples.

Results

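The chromosome 9 flank telomeric of Il18 is the stretch of 10 Mb of mouse chromosome 9 that follows the Il18 probe in coordinate order, from 50389821 to 60389820 on genome build mm9. Its members were chosen by the position of their probes and by their signal, which had to stand well above background on each of the 3 arrays of some group, with no use of a genotype difference. The window held 308 probes under 207 gene names, and 165 names were kept as members, of 26495 genes kept on the whole array. The other 42 names did not pass the signal requirement. Il18 itself and Ppcdc were left out by the rule. Where a gene had several probes, the one with the highest mean signal stood for it. Of the 165 members, 149 were well above background on all 12 arrays and 16 on fewer, so that some of those 16 were kept through the group in which they were bright.

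Total RNA of whole brain came from BALB/c mice in 4 groups of 3 samples, labelled as biological replicates, with 1 Agilent one-colour array each. The groups were knockout mice without interleukin-18 at 6 weeks, wild-type mice at 6 weeks, knockout mice at 12 weeks and wild-type mice at 12 weeks, and no animal was treated. All groups carry the same strain name. How the knockout allele was made, the strain in which it was made, the number of backcrosses and the sex of the animals are not given in the sources used here. In whole brain, fewer cells of a type and less RNA per cell cannot be told apart.

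Il18 encodes interleukin-18, an inflammatory cytokine of the interleukin-1 family. Neighbouring genes on a chromosome are inherited together, the more so the closer they lie, and a targeted allele that is moved between strains by backcrossing brings a stretch of its original chromosome with it. Comparing the neighbours of a targeted gene by their distance from it is therefore a usual check of a knockout strain. Whether these knockout mice carry such a stretch was not tested, since the arrays measured RNA and no genotype. The flank begins with a dense group of genes for mitochondrial, chaperone and signalling proteins, from Sdhd to Cryab. Further out lie the DNA damage kinase gene Atm, a cluster of nicotinic acetylcholine receptor genes, and genes of RNA processing and glycolysis such as Rpp25 and Pkm2.

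The probes that carry the results are shown first, because an array reports only the RNA that pairs with its probe. They are those of the 13 members that differed between genotypes at 6 weeks and of Cryab, which differed once the slides were taken into account. Each line gives the gene, the mm9 position of the 60-base probe, its strand and its bases 16 to 45, 5′ to 3′, as deposited in the scan files. No base is in capitals because no motif or variant was looked for in the probes.
Pih1d2 (chr9:50432998-50433057, plus strand): cttccagaatcgattaatacagaaatgact
Cryab (chr9:50564566-50564625, plus strand): ccgcagcccctaagaagtagatcccctttc
Alg9 (chr9:50651281-50651340, plus strand): gtgtgggctagccttctccactctctggcc
C130081A10Rik (chr9:50657740-50657799, plus strand): aatcttgtaagttgctacttctctgttagt
Gm6980 (chr9:51721884-51721943, minus strand): tgaaattctacctatctgataatgacagcc
Rab39 (chr9:53492468-53492527, minus strand): tttcttgagttctttcttgttatttctgtg
Nrg4 (chr9:55068030-55068089, minus strand): gaaaacctccttttaataaactccgactct
lincRNA (chr9:55786312-55786371, plus strand): tgtcggtgccaggcttggaaggatccaact
2410133F24Rik (chr9:56977826-56977885, minus strand): tacattccaaatgcaggttacccagaaaaa
Neil1, second entry (chr9:56990628-56990687, minus strand): aaatgtaagccatcttcaacattttttaaa
Neil1 (chr9:56991288-56991347, minus strand): ccggcctccaacaaaaccaggaaaccccta
Rpp25 (chr9:57353026-57353085, plus strand): gctacggagctgattacttgaggatggcca
Insyn1 (chr9:58338136-58338195, plus strand): tgaaggcatcctgagagaactcaaagaagt
Rec114 (chr9:58508155-58513675, minus strand): ctgtttggaacaacaataaagaacaagagc

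The Rec114 probe reaches over more than 60 bases of the genome because its ends are given on either side of a gap. Whether each probe lies in a coding exon or an untranslated region was not read here, since no mm9 annotation was used. Of the 165 members, 79 lay on the plus strand and 86 on the minus strand, and 119 matched a current RefSeq symbol.

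Il18 was checked first. Its probe read -0.28, -0.17 and -0.20 in knockout brains, against 1.60, 1.75 and 1.52 in wild-type brains at 6 weeks, as log2 signal relative to the 75th percentile of the array, the scale of all levels given here. At 12 weeks the probe read -0.20, -0.23 and -0.32 in knockout brains, against 1.51, 1.63 and 1.93 in wild-type brains. The groups lay far apart at both ages, with log2 changes of -1.84 ± 0.10 (SE; adjusted p = 2.29e-05) and -1.94 ± 0.10 (adjusted p = 1.20e-05). On the other side of Il18, the 2 nearest kept genes were lower in knockout brains as well: Bco2, a carotenoid-cleaving enzyme, with changes of -1.58 ± 0.10 and -1.46 ± 0.10 at 6 and 12 weeks, and Pts, an enzyme of tetrahydrobiopterin synthesis, with -0.95 ± 0.08 and -0.97 ± 0.08.

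The share of non-control spots well above background was 65.9% to 76.2%. Wild-type replicates 2 and 3 of 12 weeks had 76.2% and 74.0%, and no other array had more than 69.4%. The 75th percentile of an array ran from 890 to 1188 intensity units. The arrays came from 2 slides, per the file headers. Slide 2 held the 3 knockout arrays of 12 weeks and replicate 3 of the 6-week knockout group, and every other array was on slide 1. At 12 weeks slide and genotype therefore cannot be told apart within the comparison, and a fit with slide as a block rests on the 6-week knockout group for the slide effect. At 6 weeks that fit is the comparison of knockout replicates 1 and 2 with wild type. Slide column 2 held the wild-type arrays of 6 weeks together with replicate 1 of the 12-week wild-type group, and the other arrays lay in column 1, so column and genotype coincide at 6 weeks. Neuron, oligodendrocyte, astrocyte and microglia markers were well above background on every array, as whole brain should show. At 12 weeks 3 of 4 microglia, 2 of 4 oligodendrocyte, 2 of 4 astrocyte and 1 of 6 neuron markers were called higher in knockout brains. Of 5 meninges markers 1 was higher and 1 lower. The 12-week marker counts stand beside 18.5% of all genes called higher and 14.5% called lower. No marker list had a call with slide as a block. Of 3 blood markers 2 were called higher in knockout brains at 12 weeks, where their mean level on an array lay between 3.46 and 4.20 in knockout brains, against 2.97 and 3.44 in wild-type brains. At 6 weeks it lay between 2.87 and 3.25 in knockout brains, against 2.56 and 3.00 in wild-type brains, with no call. Of the liver markers, Alb was well above background on all 3 knockout arrays and on no wild-type array at 6 weeks, without a call (adjusted p = 0.110). The part of blood or liver RNA in the results below was not tested.

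At 6 weeks, 13 of the 165 members differed between knockout and wild type, 8 higher and 5 lower in knockout brains. That is 7.88% of the members, beside 0.925% of all genes tested (245 of 26495), by limma with a Benjamini-Hochberg adjusted p under 0.05 over all genes. Over the array 0.547% were called higher and 0.377% lower. On the centromeric side of Il18 the same window width held 131 kept genes, of which 23 were called (17.6%), and on the rest of chromosome 9 it was 11 of 1065 (1.03%). The difference between both flanks was not tested. The 13 calls were spread over the flank from 0.0432 Mb to 8.12 Mb from Il18, 6 on the plus and 7 on the minus strand. At an unadjusted p under 0.05 there were 60 members (36.4%), beside 18.5% of all genes. The 152 members that were not called had changes from -1.41 to 0.49. Scaling arrays by their median in place of the 75th percentile moved the median change of all genes to 0.13, from 0.04 here. It called 16 members, 13 higher and 3 lower, without Pih1d2 and 2410133F24Rik. Of all 26495 genes it called 389 higher and 82 lower. Arrays of both genotypes lay wholly apart at 6 weeks for 65 members (39.4%), beside 23.7% of all genes.

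**Figure D1:**
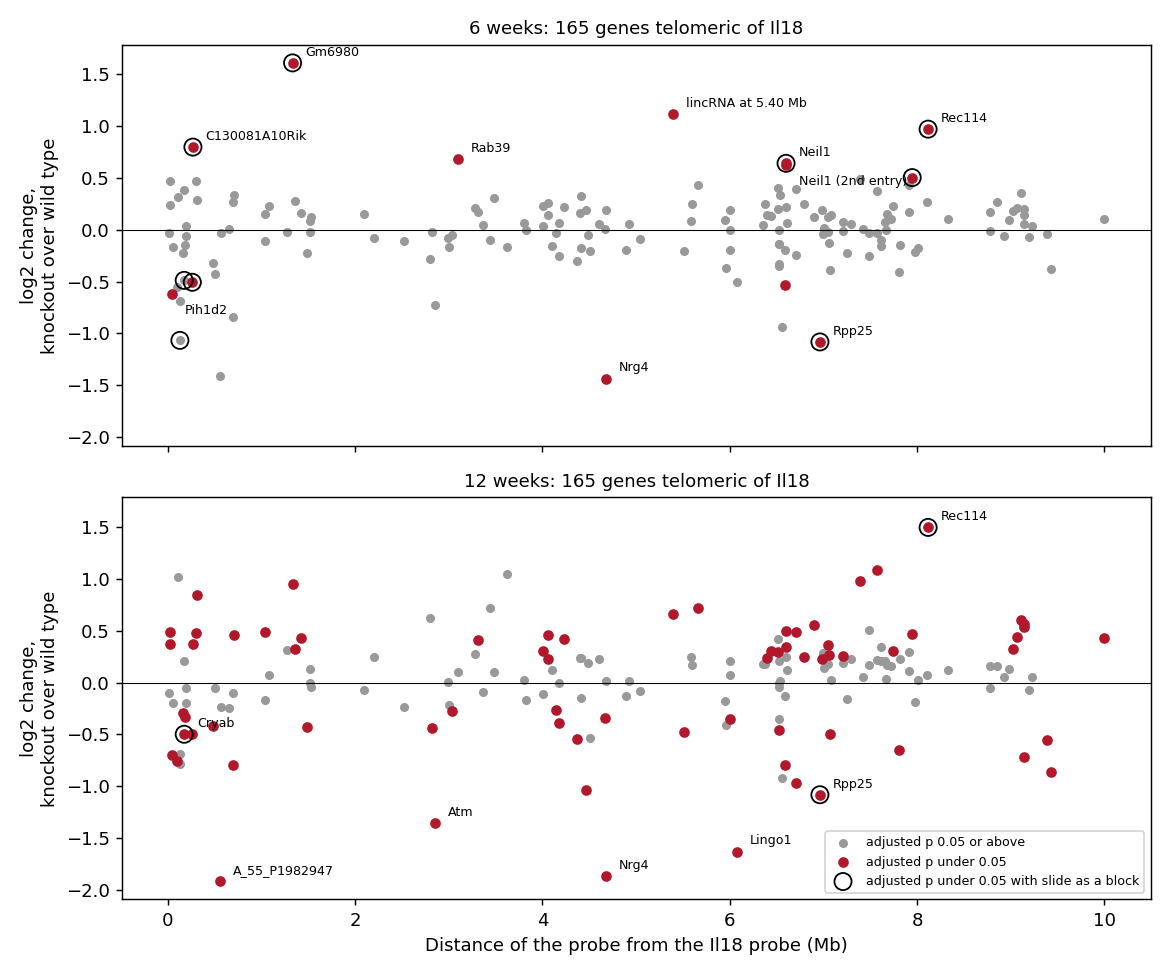
Each point is 1 of the 165 genes of the flank, with the distance of its probe from the Il18 probe in Mb on the horizontal axis and its log2 change, knockout over wild type, on the vertical axis, at 6 weeks (top) and 12 weeks (bottom), 3 arrays a group. Red points are called at an adjusted p under 0.05, 13 at 6 weeks and 71 at 12 weeks, and rings mark the 9 and 3 genes called with slide as a block. The genes called at 6 weeks lie within 8.12 Mb of Il18, and those called at 12 weeks reach 9.99 Mb.

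Rpp25, a protein subunit of the ribonucleases P and MRP that trim transfer and ribosomal RNA precursors, had the smallest adjusted p at 6 weeks. It read -0.55, -0.72 and -0.47 in knockout brains, against 0.56, 0.38 and 0.57 in wild-type brains at 6 weeks. The 12-week arrays read -0.38, -0.19 and -0.18 in knockout brains, against 0.96, 0.67 and 0.87 in wild-type brains. Every knockout array lay below every wild-type array at both ages. The log2 changes were -1.08 ± 0.10 (adjusted p = 0.000884) and -1.08 ± 0.10 (adjusted p = 0.000741), and the call held with slide as a block (-1.14, adjusted p = 0.00276 at 6 weeks and adjusted p = 0.0459 at 12 weeks). Rpp25 lies 6.96 Mb from Il18. The 9 other subunits of these ribonucleases, which lie on other chromosomes or outside the flank, had no call at 6 weeks, and at 12 weeks 2 of 9 were higher (Pop5, 0.45, and Pop7, 0.40), beside 18.5% of all genes called higher at that age.

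Rec114, known for its part in the DNA breaks that start meiotic recombination, stands in the files as 2410076I21Rik and lies 8.12 Mb out. Its probe read -3.30, -3.34 and -3.48 in knockout brains, against -4.18, -4.46 and -4.39 in wild-type brains at 6 weeks. The values at 12 weeks were -3.33, -2.95 and -3.29 in knockout brains, against -4.57, -4.80 and -4.69 in wild-type brains. Both ages had knockout arrays wholly above wild-type arrays, by 0.97 ± 0.12 (adjusted p = 0.00508) and 1.50 ± 0.12 (adjusted p = 0.000165). The slide block left it called at 6 weeks (adjusted p = 0.0162) and 12 weeks (adjusted p = 0.0262).

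Alg9, the mannosyltransferase that extends the sugar precursor of N-glycans in the endoplasmic reticulum, was the nearest to Il18 of the members called at 6 weeks both with and without the slide block, at 0.261 Mb. It read -0.50, -0.56 and -0.44 in knockout brains, against 0.05, 0.02 and -0.04 in wild-type brains at 6 weeks. It read -0.51, -0.55 and -0.54 in knockout brains, against 0.01, -0.12 and 0.01 in wild-type brains at 12 weeks. The changes of -0.51 ± 0.06 (adjusted p = 0.00657) and -0.50 ± 0.06 (adjusted p = 0.00335) were of the same size at both ages, and the groups did not overlap. Of the 9 other lipid-linked mannosyltransferase genes tested, all outside the flank, none was called at 6 weeks and 5 at 12 weeks, 2 higher and 3 lower, beside 33.0% of all genes, and none at either age with slide as a block.

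Gm6980, a predicted gene at 1.33 Mb, had the largest rise at 6 weeks. Its probe read -3.12, -3.25 and -2.97 in knockout brains, against -4.28, -4.65 and -5.23 in wild-type brains. Its 12-week values were -3.23, -3.28 and -3.36 in knockout brains, against -4.52, -4.16 and -4.06 in wild-type brains. The groups lay apart at both ages, and the change was 1.61 ± 0.21 (adjusted p = 0.00785) at 6 weeks and 0.95 ± 0.21 (adjusted p = 0.00951) at 12 weeks. C130081A10Rik, a cDNA 0.268 Mb from Il18 next to Alg9, read -1.34, -1.46 and -1.48 in knockout brains, against -2.30, -2.25 and -2.13 in wild-type brains at 6 weeks, with no overlap, a rise of 0.80 ± 0.12 (adjusted p = 0.0160). At 12 weeks it read -1.55, -1.38 and -1.80 in knockout brains, against -1.99, -1.74 and -2.10 in wild-type brains, where the lowest knockout array lay below the highest wild-type array (0.37 ± 0.12, adjusted p = 0.0385).

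Insyn1, a protein of inhibitory synapses that the files call 6030419C18Rik, was higher by 0.50 ± 0.07 at 6 weeks (adjusted p = 0.0126) and 0.47 ± 0.07 at 12 weeks (adjusted p = 0.00467). Its 6-week levels were 1.91, 2.01 and 2.03 in knockout brains, against 1.53, 1.48 and 1.43 in wild-type brains. At 12 weeks the levels were 1.82, 2.01 and 1.82 in knockout brains, against 1.43, 1.39 and 1.42 in wild-type brains. It was among the brightest of the 13, and its groups lay apart at both ages. A further Insyn1 probe gave 0.46 at 6 weeks (adjusted p = 0.0777) and -0.0028 at 12 weeks (adjusted p = 0.986), so the 2 probes gave different values at 12 weeks.

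Neil1, a DNA glycosylase that removes oxidised bases, is measured under 2 names, its symbol and ENSMUST00000098692, whose probes begin 0.660 kb apart. Under its symbol it read -3.02, -2.86 and -3.07 in knockout brains, against -3.60, -3.65 and -3.62 in wild-type brains at 6 weeks, a rise of 0.64 ± 0.09 (adjusted p = 0.0134). At 12 weeks it read -3.01, -2.96 and -3.28 in knockout brains, against -3.30, -3.33 and -3.36 in wild-type brains, and the change of 0.25 ± 0.09 did not pass (adjusted p = 0.0574). The second entry, named here after its values were seen, had a brighter signal and rose by 0.62 ± 0.11 (adjusted p = 0.0296) and 0.50 ± 0.11 (adjusted p = 0.00941). Both entries had knockout above wild type on every array of both ages. The 13 names thus stand for 12 genes.

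The other members called at 6 weeks, the second entry of Neil1 among them, lost the call with slide as a block. All 13 kept their direction with the block, with absolute changes of 0.48 to 1.54. Pih1d2, a relative of proteins that help assemble the dynein arms of cilia, was the closest to Il18 of the members called at 6 weeks. It read -2.18, -2.36 and -2.48 in knockout brains, against -1.79, -1.59 and -1.78 in wild-type brains at 6 weeks, -0.62 ± 0.10 in all (adjusted p = 0.0200; -0.55 and adjusted p = 0.0526 with the block). Pih1d2 read -2.30, -2.44 and -2.48 in knockout brains, against -1.81, -1.64 and -1.67 in wild-type brains at 12 weeks, a fall of the same order (-0.70 ± 0.10, adjusted p = 0.00401), and its groups lay apart at both ages. A further Pih1d2 probe had changes of -0.60 (adjusted p = 0.155) and -0.54 (adjusted p = 0.0493).

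Nrg4, a ligand of the receptor ErbB4 from the epidermal growth factor family, had the largest fall at 6 weeks. It read -5.76, -5.11 and -5.55 in knockout brains, against -4.10, -3.81 and -4.20 in wild-type brains, a change of -1.44 ± 0.21 (adjusted p = 0.0141; -1.40 and adjusted p = 0.0518 with the block). The 12-week values of Nrg4 were -5.65, -5.86 and -5.83 in knockout brains, against -4.20, -3.47 and -4.05 in wild-type brains (-1.87 ± 0.21, adjusted p = 0.00184). These are dim values: only 1 of 3 knockout arrays at 12 weeks was well above background. Rab39, a small GTPase of vesicle traffic, read -3.11, -3.18 and -3.16 in knockout brains, against -3.74, -3.73 and -4.02 in wild-type brains at 6 weeks (0.68 ± 0.11, adjusted p = 0.0218; 0.69 and adjusted p = 0.0566 with the block). At 12 weeks it read -2.99, -3.24 and -3.23 in knockout brains, against -3.42, -3.13 and -3.21 in wild-type brains, where the groups overlapped (0.10 ± 0.11, adjusted p = 0.507).

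The last 2 of the 13 have no gene symbol and are named after their values were seen. A lincRNA that the files place on mm9 from 55786058 to 55797810 rose by 1.12 ± 0.19 at 6 weeks (adjusted p = 0.0264; adjusted p = 0.0762 with the block), with 2 of 3 wild-type arrays at 6 weeks above background. At 12 weeks its change was 0.66 (adjusted p = 0.0234). A further probe gave 0.44 at 6 weeks (adjusted p = 0.344) and the opposite sign at 12 weeks (-0.22, adjusted p = 0.496). Another further probe gave 1.26 (adjusted p = 0.0553) and 0.61 (adjusted p = 0.0790). ENSMUST00000142077, described in the files as 2410133F24Rik, fell by 0.53 ± 0.11 on the log2 scale at 6 weeks (adjusted p = 0.0498; adjusted p = 0.108 with the block) and by 0.79 ± 0.11 on the log2 scale at 12 weeks (adjusted p = 0.00377). It kept its 6-week call in 1 of 12 fits that each left out 1 array.

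**Figure D2:**
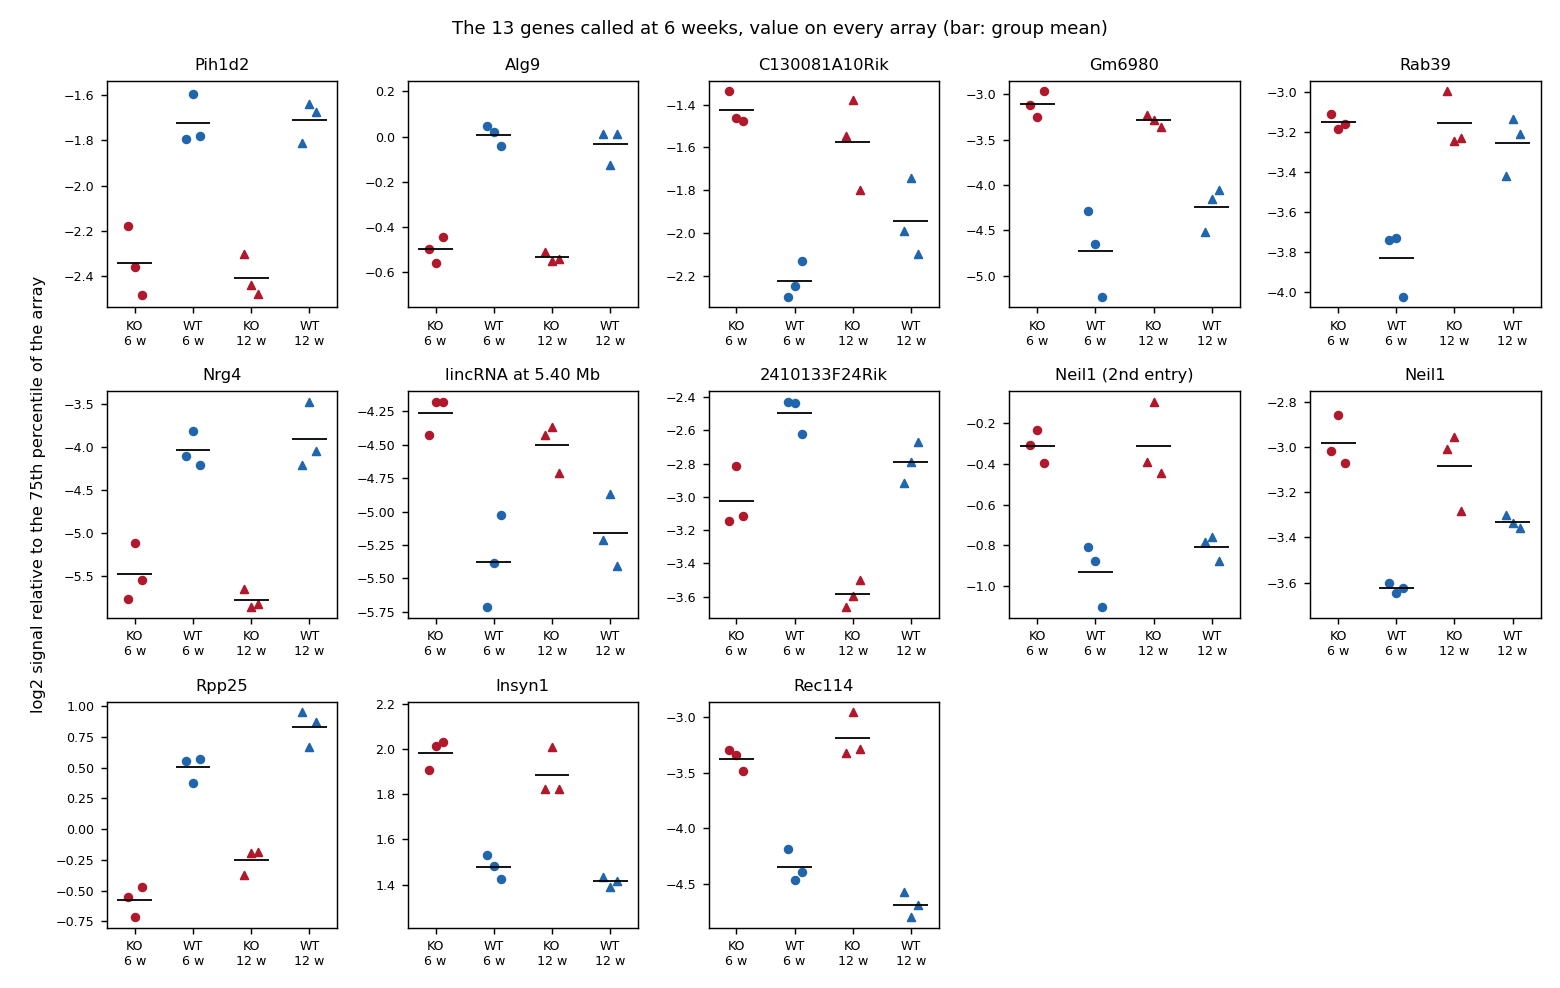
Levels of the 13 members called at 6 weeks, in log2 signal relative to the 75th percentile of the array, with 1 panel a gene and 1 point an array. Knockout (KO, red) stands left of wild type (WT, blue) at 6 weeks (circles) and 12 weeks (triangles), with 3 arrays a group and bars at the group means. The 6-week groups do not overlap in any panel, which the call itself favours, and at 12 weeks Rab39 and C130081A10Rik overlap.

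With slide as a block, 9 of 165 members were called at 6 weeks (5.45%, beside 0.498% of all genes). Of the 13 above, 7 were among them: Alg9, C130081A10Rik, Gm6980, Neil1, Rpp25, Insyn1 and Rec114. The other 2 were Cryab and ENSMUST00000117093, a transcript of Dixdc1. This transcript passed the signal requirement only through wild type at 6 weeks, the group where it is high, so its call is only a description. Cryab, the small heat shock protein alphaB-crystallin, read 3.78, 3.79 and 4.24 in knockout brains, against 4.44, 4.42 and 4.42 in wild-type brains at 6 weeks. All 3 knockout arrays lay below the wild-type arrays, replicates 1 and 2 on slide 1 further than replicate 3 on slide 2. Its change was -0.49 ± 0.12 in the whole group (adjusted p = 0.0799) and -0.64 with the block (adjusted p = 0.00588). At 12 weeks Cryab read 4.18, 4.05 and 4.15 in knockout brains, against 4.65, 4.70 and 4.52 in wild-type brains (-0.50 ± 0.12, adjusted p = 0.0114). With the block its 12-week change was -0.96, larger than without it (adjusted p = 0.0167). With slide column as a block no member of the 13 was called at 6 weeks (adjusted p of 0.0724 to 0.663), and 1 other member was, ENSMUST00000098784, a transcript of Dixdc1, named after its value was seen. That is 1 of 165 members, beside 108 of all 26495 genes. A fit to the 6-week groups alone called 3 of 165 members, C130081A10Rik, Rpp25 and Rec114, beside 56 of all 26495 genes. Within slide 1 alone 4 of 165 members were called, Cryab, Neil1, Rpp25 and Rec114, beside 54 of all genes.

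The first 500 kb after Il18 held 21 members, in the order Sdhd, Timm8b, Nkapd1, Pih1d2, Dlat and Dixdc1, then Hspb2, Cryab and Fdxacb1, then Alg9, Ppp2r1b, Sik2, Layn and Hoatz, with 7 entries under clone, accession or RIKEN names between them. Of the 21, 3 were called at 6 weeks and 12 at 12 weeks, 5 higher and 7 lower, and 20 of 21 had the same sign at both ages. Those calls stand beside 0.925% and 33.0% of all genes, and 68.3% of all genes had the same sign at both ages. Under the slide block 4 of the 21 were called at 6 weeks and 1 at 12 weeks, beside 0.498% and 0.113% of all genes. The 4 include ENSMUST00000117093, kept only through wild type at 6 weeks, where it is high, so its part in that count is only a description. Higher and lower values were mixed along the 500 kb, with runs of neighbours of the same sign.

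Sdhd, a membrane anchor of succinate dehydrogenase and the nearest member to Il18, did not pass at either age (-0.03 ± 0.08, adjusted p = 0.878; -0.10 ± 0.08, adjusted p = 0.358). Its neighbour Timm8b, a chaperone of the mitochondrial intermembrane space, was higher by 0.37 ± 0.11 at 12 weeks (adjusted p = 0.0289) and stood at 0.24 ± 0.11 at 6 weeks, where it did not pass (adjusted p = 0.286). The 12-week change of Timm8b was 0.05 with slide as a block. Sdhd and Timm8b are transcribed away from each other. In RefSeq's GRCm38.p6 their start sites are separated by 51 bases, shown here because both genes share them and their values had opposite signs. The capitals mark the letters CCGGAAG, a core bound by ETS factors, which were searched on both strands.
Timm8b and Sdhd, chr9:50603850-50603900 on GRCm38.p6, plus strand: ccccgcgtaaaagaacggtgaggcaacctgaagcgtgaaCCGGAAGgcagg

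These letters were found in the 300-base promoter window of 18 of the 101 members that had one in the RefSeq table (17.8%) and in 8.86% of all 32851 promoter windows of the same length. Of the other motifs searched on both strands, TATAAA was in 9 of 101 (8.91%) beside 13.6% of all windows, CCAAT in 39 of 101 (38.6%) beside 37.4%, and the NRF1 palindrome in 0 of 101 beside 0.971%. A match is a description of the sequence and no measure of binding.

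Nkapd1, which the files call AU019823, was higher at 12 weeks, by 0.49 ± 0.12 (adjusted p = 0.0124), and at 0.47 ± 0.12 at 6 weeks, where it did not pass (adjusted p = 0.0888). Dlat, the acetyltransferase of the pyruvate dehydrogenase complex, was at -0.17 ± 0.08 and -0.20 ± 0.08 and passed only over both ages together (-0.18 ± 0.05, adjusted p = 0.0289). Dixdc1, a Wnt pathway protein with a DIX domain, read -1.18, -1.12 and -1.09 in knockout brains, against -0.69, -0.55 and -0.49 in wild-type brains at 6 weeks. The groups lay apart, but the change of -0.55 ± 0.11 missed the threshold (adjusted p = 0.0570). At 12 weeks it fell by 0.76 ± 0.11 on the log2 scale (adjusted p = 0.00474). ENSMUST00000117093, its second entry, changed by -1.07 ± 0.29 at 6 weeks (adjusted p = 0.109; -1.45 and adjusted p = 0.0184 with the slide block) and was well above background on 1 of 3 knockout and 3 of 3 wild-type arrays.

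Hspb2 and Cryab are neighbouring small heat shock protein genes that are transcribed away from each other. Hspb2 was at 0.39 ± 0.09 and 0.21 ± 0.09, and passed over both ages together (0.30 ± 0.06, adjusted p = 0.00939). Cryab over both ages was at -0.49 ± 0.08 (adjusted p = 0.00494), so the pair had opposite signs at both ages. A further Cryab probe had changes of -0.80 (adjusted p = 0.0650) and -0.49 (adjusted p = 0.0432). Of 5 small heat shock genes measured outside the flank none was called at 6 weeks. Hspb1 (0.90) and Hspb8 (0.41) were higher at 12 weeks, beside 18.5% of all genes called higher. With slide as a block their 12-week changes were 0.56 and 0.05, without a call.

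Fdxacb1 did not pass at either age (0.04 ± 0.10 and -0.05 ± 0.10). Ppp2r1b, a scaffold subunit of protein phosphatase 2A, was at 0.47 ± 0.16 (adjusted p = 0.172) and 0.47 ± 0.16 (adjusted p = 0.0444), and at -0.01 at 12 weeks with slide as a block. Sik2, a salt-inducible kinase, was at 0.28 ± 0.13 (adjusted p = 0.272) and 0.84 ± 0.13 (adjusted p = 0.00474). A further Sik2 probe had the opposite sign at both ages, -0.72 (adjusted p = 0.187) and -0.48 (adjusted p = 0.166), so the gene has no single direction here. Layn, a hyaluronan receptor, was at -0.32 ± 0.12 (adjusted p = 0.208) and -0.42 ± 0.12 (adjusted p = 0.0277), and its further probe passed at both ages, with -0.52 (adjusted p = 0.0159) and -0.55 (adjusted p = 0.00433). Hoatz (4833427G06Rik) did not pass (-0.43 ± 0.13 and -0.05 ± 0.13).

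**Figure D3:**
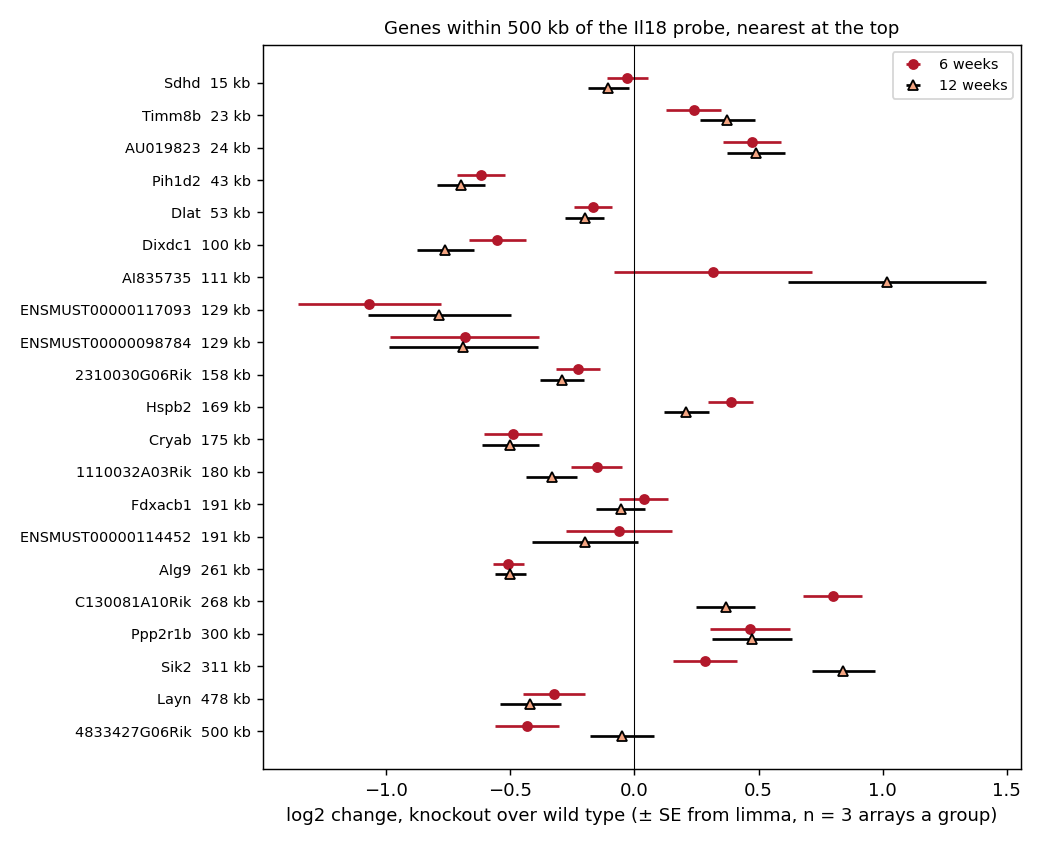
Log2 change, knockout over wild type, on the horizontal axis for the 21 members within 500 kb of the Il18 probe, nearest at the top, at 6 weeks (circles) and 12 weeks (triangles), with bars of ± 1 SE from limma and 3 arrays a group. Values on either side of 0 are mixed along the chromosome, in runs of neighbours of the same sign, and the 2 ages lie close together for most genes.

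The size of the genotype difference was then set against distance from Il18. The median absolute log2 change at 6 weeks was 0.33 over the 27 members in the first Mb. It was 0.15 over the 13 members from 1 to 2.5 Mb, 0.17 over the 38 from 2.5 to 5 Mb, 0.19 over the 52 from 5 to 7.5 Mb and 0.16 over the 35 from 7.5 to 10 Mb. Over all genes it was 0.14. The first Mb thus had the largest median of the 5 intervals, and the 4 others lay close to each other. At 12 weeks the medians were 0.42, 0.25, 0.24, 0.25 and 0.21 in the same order, beside 0.24 over all genes. The interval from 1 to 2.5 Mb holds under 20 members. For the age difference in wild type, where both groups carry Il18, the first Mb had a median of 0.12 and all genes 0.12. Signal level differed along the flank too, with a median of -1.73 in the first Mb and 2.14, -1.09, -0.66 and -0.11 outward. Its part in the sizes above was not tested.

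The share of members called at 6 weeks was highest in the first Mb as well, with and without the slide block. Each interval held few calls, so the order of the shares is uncertain. Without the block the share was 3 of 27 in the first Mb, then 7.69%, 5.26%, 9.62% and 5.71% of the members outward. Each of the 5 intervals was above the 0.925% of all genes without the slide block. Under the slide block the counts were 4 of 27, 1 of 13, 0 of 38, 2 of 52 and 2 of 35 outward, beside 0.498% of all genes, so the interval from 2.5 to 5 Mb had no call. The 4 in the first Mb include ENSMUST00000117093, kept only through wild type at 6 weeks, where it is high. Its part in that count is only a description. Across the 165 members the absolute change and the distance had a Spearman rho of -0.16 at 6 weeks and -0.09 at 12 weeks, and over the 138 members beyond 1 Mb it was 0.01 and 0.03. These are descriptions without a test, and neighbouring members share arrays and in places transcripts. Without 6-week knockout replicate 3 the median in the first Mb was 0.37 and that of the last interval 0.10.

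**Figure D4:**
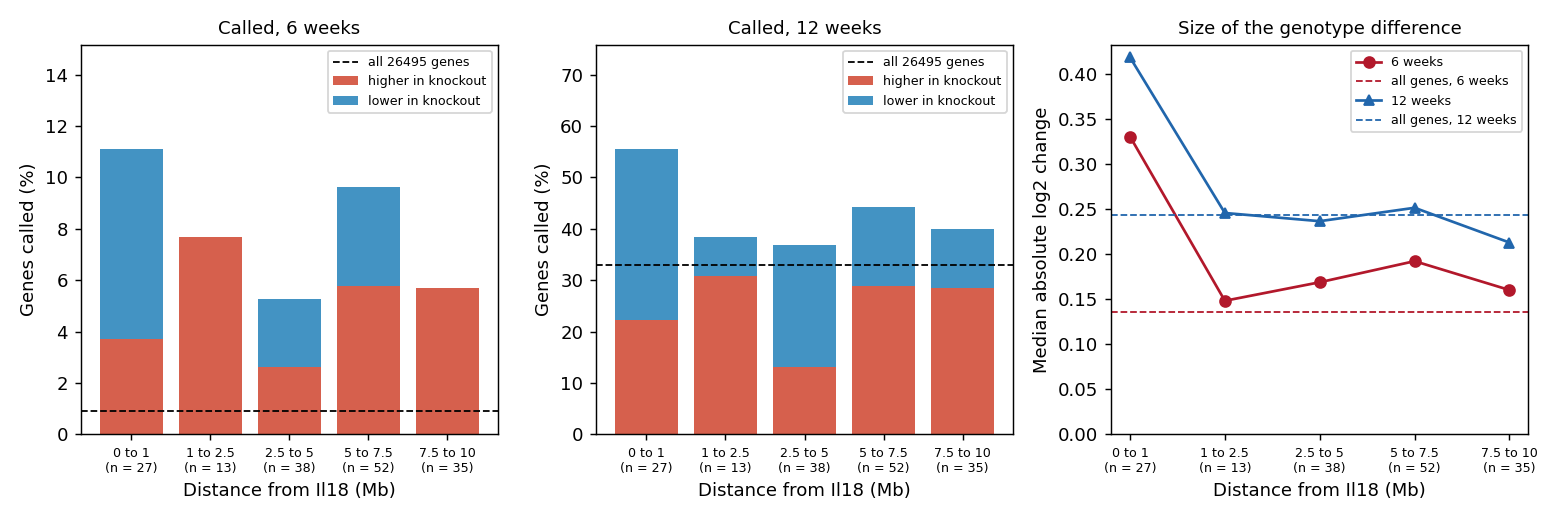
Share of members called (%) in 5 intervals of distance from Il18 in Mb at 6 weeks (left) and 12 weeks (middle), split into higher (red) and lower (blue) in knockout, and the median absolute log2 change (right), with dashed lines for all 26495 genes. The first Mb has the highest median at both ages (0.33 and 0.42), and each share called at 6 weeks, drawn without the slide block, lies above the line for all genes.

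The outermost member was a probe with no gene name, A_55_P2129911 at 9.99 Mb, at 0.10 ± 0.09 at 6 weeks (adjusted p = 0.522) and 0.43 ± 0.09 at 12 weeks (adjusted p = 0.00741). The outermost with a symbol, Thsd4, a thrombospondin repeat protein 9.43 Mb out, was at -0.38 ± 0.17 (adjusted p = 0.257) and -0.86 ± 0.17 (adjusted p = 0.00736). The first named gene beyond the window, Lrrc49 at 10.05 Mb, was at -0.02 ± 0.11 (adjusted p = 0.954) and -0.40 ± 0.11 (adjusted p = 0.0222).

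At 12 weeks 71 of 165 members were called, 40 higher and 31 lower in knockout brains, which is 43.0% of the members beside 33.0% of all genes (18.5% higher and 14.5% lower). Arrays of both genotypes lay wholly apart at that age for 105 members (63.6%), beside 52.4% of all genes. With median scaling it was 64 members higher and 22 lower, beside 7386 higher and 2015 lower of all 26495 genes. The 94 members not called had changes from -0.93 to 1.05. With slide as a block it was 3 members (1.82%, beside 0.113% of all genes), Cryab, Rpp25 and Rec114. The lowest change of a called member was that of probe A_55_P1982947, which has no gene name in the files, lies 0.559 Mb from Il18 and was chosen after its values were seen. It read -5.31, -5.86 and -5.00 in knockout brains, against -3.67, -3.49 and -3.26 in wild-type brains at 12 weeks (-1.92 ± 0.38, adjusted p = 0.00773; -0.32 with the block). Its 6-week values were -3.67, -3.32 and -5.09 in knockout brains, against -2.67, -2.58 and -2.60 in wild-type brains (-1.41 ± 0.38, adjusted p = 0.109), with the knockout array of slide 2 lowest and the groups apart. The largest falls among the called genes with a symbol, after Nrg4, were those of Lingo1, Atm and Rpp25, and then Chrna5, whose size is only a bound. Atm, the kinase that answers DNA double-strand breaks, read -2.36, -2.37 and -2.27 in knockout brains, against -1.02, -0.96 and -0.96 in wild-type brains (-1.35 ± 0.15, adjusted p = 0.00207; -0.79 with the block). Its 6-week values were -1.61, -1.62 and -2.18 in knockout brains, against -1.32, -0.89 and -1.01 in wild-type brains, apart in the same direction but short of the threshold (-0.73 ± 0.15, adjusted p = 0.0579). A further Atm probe gave -0.99 at 12 weeks (adjusted p = 0.00320).

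Lingo1, a neuronal membrane protein known to restrain myelination, differed between the slides within the 6-week knockout group. It read -1.45, -1.46 and -1.50 in knockout brains, against 0.37, 0.05 and 0.06 in wild-type brains at 12 weeks, a change of -1.63 ± 0.47 (adjusted p = 0.0249). At 6 weeks it read 0.53, 0.50 and -1.70 in knockout brains, against 0.26, 0.22 and 0.35 in wild-type brains, so the knockout array on slide 2 resembled the 12-week knockout arrays and the 2 on slide 1 lay above wild type. With slide as a block its 12-week change was 0.59. Chrna5, the alpha5 subunit of nicotinic receptors, read -6.27, -5.98 and -6.16 in knockout brains, against -5.12, -4.90 and -5.28 in wild-type brains at 12 weeks. No knockout array of that age was well above background, so knockout was at least 1.74-fold lower (adjusted p = 0.00569). At 6 weeks it was at 0.19 ± 0.18 (adjusted p = 0.576). Its neighbour Chrnb4 did not pass at either age (-0.05 ± 0.11 and 0.19 ± 0.11). Of 7 nicotinic subunits outside the flank 1 was called at 12 weeks, Chrna4, which was higher (0.47), beside 18.5% of all genes called higher at that age.

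Leaving out clone, RIKEN and Gm names, the largest rises at 12 weeks after Rec114 were those of Ubl7, a ubiquitin-like protein (0.98 ± 0.20, adjusted p = 0.00797), and of the chosen probe of Sik2, which its further probe does not share. They were followed by Parp6, an ADP-ribosyltransferase (0.61 ± 0.11, adjusted p = 0.00637), and Pkm2, pyruvate kinase of glycolysis (0.57 ± 0.09, adjusted p = 0.00506). A further Parp6 probe did not pass, with 0.11 at 6 weeks (adjusted p = 0.557) and 0.23 at 12 weeks (adjusted p = 0.0841). Ubl7 lay between 1.83 and 2.0 on the 12-week knockout arrays, against 0.92 and 0.98 on the wild-type arrays of that age. At 6 weeks it read 1.11, 1.03 and 1.94 in knockout brains, against 1.05, 0.77 and 0.81 in wild-type brains, again with the slide 2 array near the 12-week knockout arrays. With slide as a block the 12-week changes were 0.11 for Ubl7, 0.16 for Parp6 and 0.33 for Pkm2.

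By function, no list of flank genes had more than 1 call at 6 weeks. The lists do not hold every flank gene of a function. Insyn1, called at both ages, is not in the synapse list, and Cox5a, named below, is not in the mitochondrial list. The 12-week counts of the lists stand beside 18.5% of all genes called higher and 14.5% called lower. Of 8 mitochondrial protein genes none was called at 6 weeks or with slide as a block, and at 12 weeks 3 were higher: Timm8b, Fdx1, a ferredoxin (0.32 ± 0.09), and Idh3a, of the citric acid cycle (0.23 ± 0.07). Of 9 partner genes of succinate and pyruvate dehydrogenase elsewhere, none was called at 6 weeks, and at 12 weeks Sdhb was higher (0.42) and Pdhx lower (-0.21). Of 6 sugar and glycan enzymes, Alg9 was lower at both ages, and Pkm2 was higher at 12 weeks, as were Man2c1, a cytosolic mannosidase (0.34 ± 0.07), and Hexa, a subunit of lysosomal hexosaminidase (0.32 ± 0.09). Of 6 kinases and phosphatases 5 were higher at 12 weeks and none was called at 6 weeks. They were Sik2, whose further probe had the opposite sign, Ppp2r1b, Ulk3 (0.36 ± 0.11), Ptpn9 (0.30 ± 0.07) and Clk3 (0.25 ± 0.07), and none passed with slide as a block.

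Of 6 ubiquitin pathway genes, at 12 weeks Ubl7 was higher, and Ube2q2, a conjugating enzyme (-0.34 ± 0.10), and Cul5, a cullin of ubiquitin ligases (-0.27 ± 0.09), were lower. Of 9 neuronal surface and synapse genes, Scamp5, a synaptic vesicle protein (0.56 ± 0.11), and Cplx3, a complexin of ribbon synapses (0.26 ± 0.09), were higher at 12 weeks, and Lingo1 and Lman1l (-0.50 ± 0.13) lower. Lman1l, a relative of a lectin of the secretory pathway, is not known as a synaptic protein. A further Lman1l probe had the opposite sign at 12 weeks (0.13, adjusted p = 0.587). Nptn, Sema7a and Islr2, of the same list, did not pass at either age. The P450 genes Cyp11a1 and Cyp19a1, of steroid synthesis, did not pass at either age. The median change of these lists lay between -0.10 and 0.17 at 6 weeks, beside 0.04 over all genes.

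The 6-week and 12-week genotype comparisons share no array, so their values can be set side by side. Their calls are not independent, because the fit uses 1 spread per gene over all 12 arrays for both ages. All 13 members called at 6 weeks had the same sign at 12 weeks, and 11 of them were called at 12 weeks in that direction (84.6%). Of the 245 genes called at 6 weeks on the whole array, 206 had the same sign (84.1%) and 131 were called in that direction (53.5%). Across the 165 members the changes at the 2 ages correlated with Pearson's r of 0.76 and Spearman's rho of 0.68, and across all 26495 genes with 0.37 and 0.46. Genes are not independent replicates, and 6-week knockout replicate 3 shares a slide with the 12-week knockout arrays. Without that array r was 0.60 and rho 0.48 over the members, and 0.12 and 0.15 over all genes.

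**Figure D5:**
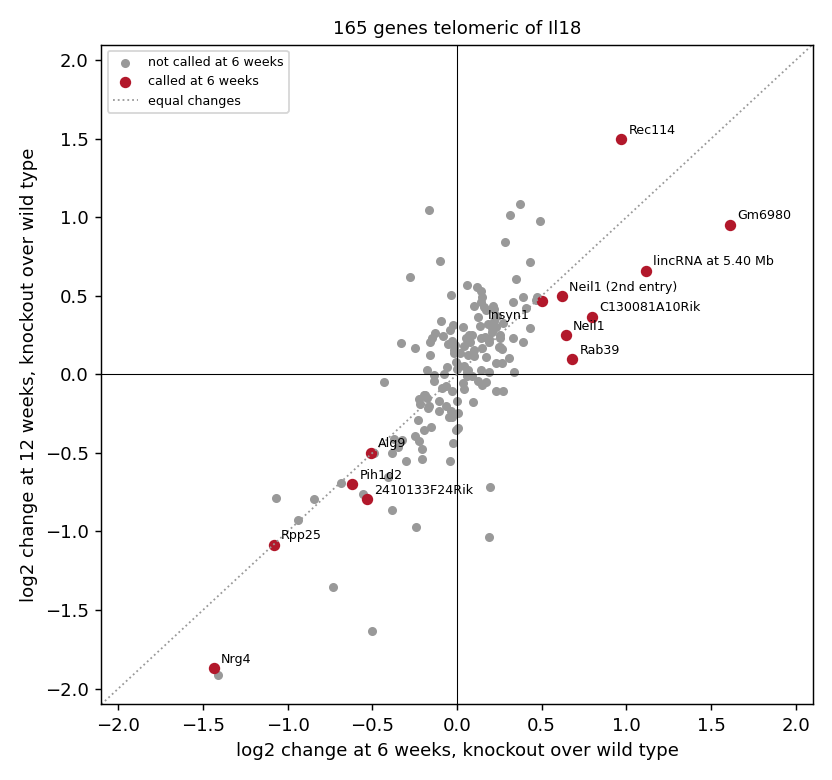
Log2 change, knockout over wild type, at 6 weeks (horizontal) and 12 weeks (vertical) for the 165 members, with the 13 called at 6 weeks in red and named, and a dotted line where both ages are equal. All 13 lie in the upper right or lower left part, so they have the same sign at both ages.

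Over both ages together 84 members were called, 50 higher and 34 lower (50.9%, beside 32.7% of all genes, 19.5% higher and 13.2% lower). In the centromeric flank it was 49.6% of the genes, and on the rest of chromosome 9 35.5%. With slide as a block 5 members were called (3.03%, beside 0.166% of all genes): Cryab, Rpp25, Rec114, Alg9 and ENSMUST00000117093. The last was kept only through wild type at 6 weeks, where it is high, and was well above background on no 12-week knockout array, so its call is only a description. A stricter view of the arrays asks that all 6 knockout arrays lie on one side of all 6 wild-type arrays. This held for 33 members, 20 above and 13 below (20.0%), beside 5.90% of all genes (4.17% above and 1.73% below). Among them were Rpp25, Rec114, Alg9, Pih1d2, Cryab, Atm, Fdx1, Idh3a, Ptpn9 and Parp6. Rdx, which links actin to the membrane, Crabp1, a retinoic acid binding protein, Cox5a, a subunit of cytochrome c oxidase, and the acyl-CoA synthetase Acsbg1 were others, named after their values were seen. The chosen Rdx probe was at -0.22 at 6 weeks and -0.43 at 12 weeks. A further Rdx probe was at 0.23 and -0.04, so the probes differed in sign at 6 weeks. By interval the 33 members were 7 of 27 in the first Mb, and 4 of 13, 6 of 38, 12 of 52 and 4 of 35 outward. In the centromeric flank the same separation of all arrays held for 35 of 131 genes (26.7%), and on the rest of chromosome 9 for 7.61%.

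No member's genotype difference changed with age after adjustment (0 of 165, beside 0.189% of all genes), although 27 had an unadjusted p under 0.05 (16.4%, beside 19.6% of all genes). The smallest adjusted p was that of Chrna5 (0.0848), whose 12-week knockout arrays were all not well above background, so that its difference has no exact size. Without 6-week knockout replicate 3 the count was 24 members, and 4719 of all genes.

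Between the ages, 1 member was called in wild type (0.606%, beside 0.638% of all genes) and 7 in knockout (4.24%, beside 2.01%). In wild type it was Rab39, which read -3.42, -3.13 and -3.21 at 12 weeks, against -3.74, -3.73 and -4.02 at 6 weeks (0.58 ± 0.11, adjusted p = 0.0479). In knockout Stra6, a retinol transporter (0.91 ± 0.14), Islr (0.66 ± 0.13), Ccdc33 (0.50 ± 0.09) and Pkm2 (0.49 ± 0.09) were higher at 12 weeks, and Trcg1 (-0.75 ± 0.16) and ENSMUST00000142077 (-0.56 ± 0.11) lower. Chrna5 was lower too (adjusted p = 0.0321), with no size given because no 12-week knockout array was well above background. These were named after their values were seen, except Rab39, Chrna5 and Pkm2. No member passed the knockout comparison with slide as a block (0.0717% of all genes did). Without 6-week knockout replicate 3 that comparison called 47 of 165 members, beside 7414 of all 26495 genes.

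For 39 members a further kept probe of the same name was available, 49 in all. The 5 such probes of genes called at 6 weeks all had the sign of the chosen probe, and none was called itself. At 12 weeks 26 further probes belonged to called members, 21 genes in all. Of these, 19 had the same sign and 10 were called.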

How the data were processed

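Whole-brain RNA on 12 arrays was read from the scan files. Per the file headers, the authors' files hold fluorescence intensity with no absolute unit for each spot, and other columns of 0 or 1 that mark signal above background, saturation and outliers. The submitters' processing notes name Agilent Feature Extraction 10.7.3.1. The authors' value table, also intensity, differs from the processed signal by at most 0.498% and served as an alternative. Positions are on mm9, as in the files; newer symbols and promoter windows are from RefSeq GRCm38.p6.

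Of 62976 spots per array 59305 are not controls. Outlier spots (107 to 220 per array) were left out, none belonging to a member, and no spot was saturated. The log2 processed signal minus the log2 75th percentile of its array was averaged per probe. A probe was kept if some group had it well above background on each of its 3 arrays (37198 probes), with 1 probe per gene name, the brightest. Precision is limited by how far signals lie above background and by the number of arrays.

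limma 3.58.1 in R 4.3.3 fitted 4 group means over 12 arrays (lmFit, eBayes, 8 residual degrees of freedom, two-sided). In each of 6 comparisons the Benjamini-Hochberg adjustment ran over 26495 genes, and the call threshold was 0.05. For further probes of a gene it ran over all 37198 kept probes. The ± values are standard errors from limma, with n = 3 arrays a group. The fit was tested on simulated data. Beside slide as a block, other scalings, filters, probe choices and left-out arrays were tried, and the agreement of both ages without 6-week knockout replicate 3 was added after seeing the data. Named are the members called at 6 weeks, those within 500 kb, those called with slide as a block, the 5 largest rises and 5 largest falls at 12 weeks, listed genes of the flank and those at its edges, with clone, accession, RIKEN, Gm and LOC names only if also called at 6 weeks with slide as a block; exceptions are marked. A fold against a group with no array above background is a bound. The members and lists were chosen with earlier results of these data known.

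The replicate numbers were read as separate animals. Samples of the same number did not deviate together: 2 of 12 arrays correlated best with their own number, and 2 of 18 pairs had a correlation over 0.1 (range -0.20 to 0.11), so the numbers pair nothing.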

Additional observations from a re-analysis of the deposited data

Results flagged for a closer look

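ENSMUST00000086982, described in the files as 4933407I18Rik and lying 9.14 Mb from Il18, had arrays of both genotypes wholly apart at both ages but in opposite directions. At 12 weeks it read -5.05, -6.03 and -5.04 in knockout brains, against -4.48, -4.60 and -4.91 in wild-type brains, with 2 of 3 knockout arrays well above background. At 6 weeks it read -4.97, -4.93 and -4.93 in knockout brains, against -5.34, -5.01 and -5.07 in wild-type brains. The genotype change was -0.71 ± 0.23 at 12 weeks (adjusted p = 0.0402) and 0.20 ± 0.23 at 6 weeks (adjusted p = 0.669), a difference of -0.91 that did not pass (adjusted p = 0.196). It was named after its values were seen.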

How the results depend on the processing

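Counts are members called, and the causes of their movement were not tested except where fewer arrays or tests are the alternative itself. At 6 weeks (13 here), the count was 4 within slide 1 alone, 1 with slide column as a block and 3 with only the groups compared. Of all 26495 genes 54, 108 and 56 were called in that order. Leaving out 1 array at a time gave 6 to 13, the lowest without wild-type replicate 2 at 6 weeks and 7 without knockout replicate 1 at 6 weeks. The 10 other settings, slide as a fixed or random block and the replicate block among them, gave 9 to 18. Alg9, Gm6980, Rpp25, Insyn1 and Rec114 kept their 6-week call in all 12 fits that left out 1 array. At 12 weeks (71 here), the count was 3 with slide as a fixed block, 4 with slide as a random block and 46 with slide column as a block. Of all genes 30, 51 and 5931 were called in that order. With 1 array left out the count was 44 to 86 (46 without wild-type replicate 1 or knockout replicate 1 at 12 weeks, 44 without knockout replicate 2). Over both ages (84 here), it was 5, 17 and 10 in the same order of the blocks, beside 44, 179 and 147 of all genes. The difference between ages (0 here) ran from 0 to 24 with 1 array left out. The 24 came only without 6-week knockout replicate 3, where 4719 of all genes were called. Age in wild type (1 here) gave 0 within slide 1, with slide column or replicate as a block, with median scaling, with no filter on dim probes and with only the groups compared, and 0 to 1 with 1 array left out. Age in knockout (7 here) gave 0 with slide as a fixed or random block, with the replicate block, with no filter and with only the groups compared. It gave 4 with slide column as a block and 4 with quantile normalization, and 0 to 47 with 1 array left out. The 47 came without 6-week knockout replicate 3, where 7414 of all 26495 genes were called.

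With the replicate block, although the numbers pair nothing, 9 members were called at 6 weeks, 61 at 12 weeks, 75 over both ages and 0 for the difference between ages. Of all genes 115, 7562, 7527 and 29 were called in that order.

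Among named genes, slide as a fixed block turned the sign at 12 weeks of Ppp2r1b (-0.0128), Ube2q2 (0.0102), Lingo1 (0.59) and Ulk3 (-0.0257), and over both ages of Lingo1 (0.41) and Ulk3 (-0.0149). Over both ages, normexp turned Chrna5 (0.0477), quantile normalization Nptn (-0.0255), and the mean of all kept probes Sik2 (-0.0181) and Arih1 (-0.0729). No gene called at 6 weeks turned its sign there under the settings run.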
